A study of Homo sapiens with 4 samples.

Results

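The genes described here are those of the NF-kB pathway together with its feedback inhibitors and the cytokines it controls, with chemokines left out. They were chosen by symbol from a list of 39 genes that names the transcription factor subunits, the IκB proteins that hold them back, the kinases and adaptors upstream, and classical target genes. Of the 39, 38 had an entry in a table of 20510 genes, and the level of IL6 was not analysed here. A level of at least 1 FPKM in at least 2 libraries was required for testing, and 33 of the 38 reached it, all 33 in each of the 4 libraries. FPKM count fragments relative to transcript length and library total, so they can be compared between genes.

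NF-kB is a family of dimeric transcription factors kept in the cytoplasm by IκB proteins. Signals from TNF, interleukin-1 or microbial products activate the IκB kinases, which mark IκB for destruction and free the dimers to enter the nucleus. Many of the genes then switched on encode brakes on the pathway itself, among them NFKBIA and TNFAIP3, alongside cytokines, adhesion molecules and survival factors. Epithelial and carcinoma cells can hold part of this programme active without an added stimulus.

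The libraries came from K1, a human cell line established from papillary thyroid carcinoma, grown in medium with serum. Cells carried a control hairpin (shCtrl, 2 libraries) or a short hairpin RNA against the T-box transcription factor TBX3 (shTBX3, 2 libraries), and the labels name no stimulus of NF-kB in either group. They give neither the hairpin's sequence, the number of hairpins or clones, nor whether the duplicates were separate cultures, so the p-values refer to the spread among 4 libraries, some of which may be technical. Whole steps in the FPKM of microRNA genes corresponded to between 8520000 and 8560000 fragments per library.

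TBX3 stood at 48.94 and 54.77 FPKM with the control hairpin and 27.81 and 36.99 with the TBX3 hairpin. Its groups did not overlap, but the adjusted p from limma was 0.428. Of the thyroid markers reported here, FOXE1, NKX2-1, TSHR and TG did not exceed 0.31 FPKM in any library, and PAX8, HHEX and SLC5A5 lay between 1.20 and 3.28. Among 10 immune cell markers, CD68 and LYZ were the most abundant. CD68, a lysosomal protein that many cell types make, stood at 7.17 and 8.24 FPKM with the control hairpin and 5.85 and 5.30 with the TBX3 hairpin, while LYZ lay between 14.56 and 16.51, PTPRC between 1.14 and 1.69, and the other markers in the table at 0.83 or below. The summed FPKM of the immune list ranged from 25.2 to 25.5 in shCtrl and from 23.9 to 24.4 in shTBX3, and its part in the results was not tested. Of 9 fibroblast and endothelial markers, PDGFRB lay between 0.39 and 2.41 and the others in the table at 0.86 or below, with sums of 2.20 to 3.80 in shCtrl and 1.57 to 2.37 in shTBX3.

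The promoters of these genes are shown first. Several carry a κB site, the DNA element that NF-kB dimers bind, close to the start of transcription. Groups are called separate where the shTBX3 and shCtrl values did not overlap. RefSeq promoter windows (250 bases before to 50 after the start) were found for 34 of the 39 genes, and all 34 were placed on GRCh37 by exact match. The NF-kB consensus was found on either strand in 13 of these 34 windows (38.2%), against 10.8% of 27305 windows of the same length. Among genes tested here the shares were 11 of 28 (39.3%) and 12.9% of 9847. The genes were listed for their part in NF-kB signalling, so a raised share may come from that choice and says nothing about the hairpin. NFKBIA carried its match 81 bases before the start, and TNFAIP3 carried a pair, 67 and 55 bases before it. Their upstream stretches (GRCh37, chr14:35873956-35874105 on the minus strand and chr6:138188246-138188395 on the plus strand, each 150 bases that end at the base before the start) are given 5′ to 3′ with the consensus matches in capitals.
NFKBIA: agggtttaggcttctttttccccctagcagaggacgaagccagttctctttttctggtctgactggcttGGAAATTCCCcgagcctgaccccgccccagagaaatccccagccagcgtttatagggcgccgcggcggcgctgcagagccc
TNFAIP3: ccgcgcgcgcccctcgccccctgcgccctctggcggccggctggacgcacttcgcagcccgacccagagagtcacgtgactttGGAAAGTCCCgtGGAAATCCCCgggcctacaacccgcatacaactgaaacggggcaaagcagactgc

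The sites of 4 further genes whose groups did not overlap follow, each with up to 20 bases on either side. They lie at chr2:61108642-61108692 (REL), chr10:30722901-30722949 (MAP3K8), chr3:101546591-101546640 (NFKBIZ) and chr11:102187996-102188109 (BIRC3), all on the plus strand of GRCh37. In REL the capitals mark a pair of overlapping matches on opposite strands.
REL: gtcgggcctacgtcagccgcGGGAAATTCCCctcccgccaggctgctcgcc
MAP3K8: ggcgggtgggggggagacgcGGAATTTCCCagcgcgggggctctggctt
NFKBIZ: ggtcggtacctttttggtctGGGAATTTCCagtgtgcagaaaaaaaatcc
BIRC3: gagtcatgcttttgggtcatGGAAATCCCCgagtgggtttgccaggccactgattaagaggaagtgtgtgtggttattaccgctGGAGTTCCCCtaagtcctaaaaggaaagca

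For contrast, NFKB1 (chr4:103422447-103422496) and TRAF3 (chr14:103243733-103243782), also on the plus strand, carry a site 49 and 33 bases before the start while their groups overlapped.
NFKB1: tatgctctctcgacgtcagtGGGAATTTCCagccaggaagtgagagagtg
TRAF3: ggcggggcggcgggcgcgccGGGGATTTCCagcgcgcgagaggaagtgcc

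A consensus match was present in 6 of 11 windows of genes whose shTBX3 pair lay wholly below the shCtrl pair, and in 5 of 16 windows of genes whose groups overlapped. Whether these shares differ was not tested. SOD2, IRAK2, TNIP1, TNFAIP2 and IKBKE, which were also separate and lower, had no match in this window. Nor had BIRC2, the 1 gene separate and higher, and RELB had no window in the RefSeq table. Only the first listed window of each gene was searched, so a match at another start would be missed, and these counts depend on that choice. The windows of SOD2 (chr6:160148367-160148666), TNIP1 (chr5:150444643-150444942) and TNFAIP2 (chr14:103589548-103589847) lay inside the annotated gene spans and not at their 5′ ends. So did the windows of BCL3, IL23A, TRAF2, IL1RN and PTGS2, genes whose groups overlapped. BCL3 and IL23A are among the 5 matches counted for such genes, so both counts include windows of this kind. The letters TCACACC, a T-box half-site, were found in 0 of 34 windows and in 3.43% of all windows. With only 34 windows, 0 cannot be told apart from a share that low. A match here is a description of the sequence and not a measurement of binding.

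None of the 33 NF-kB genes passed the threshold in the comparison of shTBX3 with shCtrl. With limma and Benjamini-Hochberg adjustment over all genes, the adjusted p of these genes ran from 0.470 for SOD2 to 1.0, against 0.18% of the 13924 genes tested that passed 0.05. At an unadjusted p under 0.05 in limma there were 4 (12.1% of 33), against 6.67% of all genes tested in either direction. The 4 were SOD2, TNFAIP2, IRAK2 and RELB, all lower in shTBX3, and 4.65% of all genes tested were lower at that limit. The largest difference among the 33 was 0.50 on the log2(FPKM + 1) scale, and the smallest among all genes that passed was 1.08.

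Below the threshold the values leaned to lower levels in shTBX3. The genes were listed with earlier results of these data known. The shares below, and those at the unadjusted limit above, are therefore no independent test of a lean. In 12 of the 33 genes (36.4%) the shTBX3 pair lay wholly below the shCtrl pair, against 19.7% of all genes tested, and in 1, BIRC2, both lay above, against 14.8%. A negative log2 fold change was seen in 23 of 33 (69.7%), against 53.1% of all genes, and the median was −0.13 against −0.014. This split moved with the scaling. Centring each library on its median gave 19 of 33 lower (57.6%, all genes 42.8%), a median of −0.083 (all genes 0.034) and 10 of 33 genes separate and lower (30.3%, all genes 14.6%). Quantile normalization gave 20 of 33 lower (60.6%, all genes 46.8%). Without shCtrl replicate 1 the median was −0.073, and it lay between −0.103 and −0.165 without any other single library. The 12 genes with separate and lower values kept a negative log2 fold change in each of 16 settings, the reported one included. They passed the threshold in none of the settings with all 4 libraries. BIRC2 kept a positive value in all 16. For genes with separate groups that sign is fixed in advance, except where libraries are rescaled. Those settings were median centring, quantile normalization and scaling to coding genes. In RNA from whole cultures, fewer cells that express a gene and less RNA per cell cannot be told apart.

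**Figure D1:**
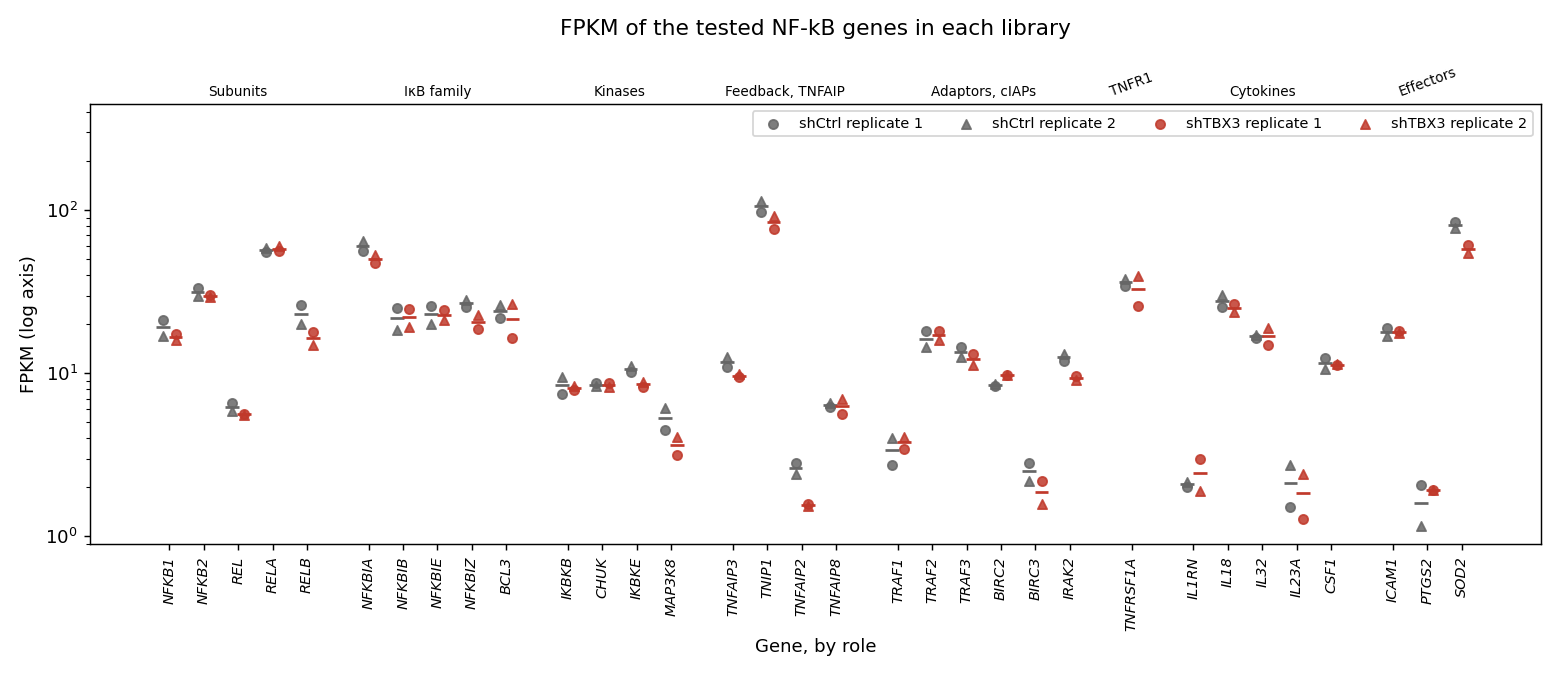
FPKM (log axis) of the 33 tested NF-kB genes by role in the 2 shCtrl libraries (grey) and the 2 shTBX3 libraries (red). Circles are replicate 1, triangles replicate 2 and short lines group means. TNIP1 is the most abundant in each library, and TNIP1 and SOD2 both have their shTBX3 points below their shCtrl points.

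The DNA-binding subunits were all expressed, at levels from 5.55 FPKM for REL to 60.55 for RELA. RELA, the p65 subunit that carries the main activation domain, was the most abundant at 55.07 and 58.68 FPKM with the control hairpin and 55.88 and 60.55 with the TBX3 hairpin. The groups overlapped, and the 95% interval of the RELA difference ran from −0.27 to 0.33 (log2). NFKB2, precursor of p52 in the non-canonical branch, followed at 33.54 and 29.91 with the control hairpin and 30.21 and 29.43 with the TBX3 hairpin, and its groups overlapped.

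RELB, the partner of p52, stood at 26.12 and 19.94 FPKM with the control hairpin and 18.01 and 14.99 with the TBX3 hairpin. The shTBX3 pair lay wholly below the shCtrl pair, with means of 23.0 ± 4.37 and 16.5 ± 2.14 (SD, n = 2 each), a log2 fold change of −0.45 ± 0.18 (SE; −0.26 without shCtrl replicate 1) and a limma adjusted p of 0.721. This was the largest difference among the subunits, and the gap between the groups, from 18.01 to 19.94, was narrower than the spread within either. NFKB1, precursor of p50, overlapped between groups at 21.33 and 16.91 with the control hairpin and 17.38 and 16.08 with the TBX3 hairpin. REL, the c-Rel subunit known mainly from lymphoid cells, was the lowest at 6.56 and 5.87 against 5.65 and 5.55. Its groups were separate by a narrow margin (log2 fold change −0.13 ± 0.14, limma adjusted p = 0.950). Without shCtrl replicate 1 the REL value was −0.058, and without shCtrl replicate 2 it was −0.20. NFKB1 and RELB had means in shTBX3 of 16.7 and 16.5 FPKM, so their order is not resolved there, whereas NFKB2 lay above both and REL below both in every library.

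Among the IκB family, NFKBIA and NFKBIZ had separate groups and NFKBIB, NFKBIE and BCL3 did not. NFKBIA encodes IκBα, the inhibitor that NF-kB itself induces as a rapid brake. It stood at 56.58 and 64.69 FPKM with the control hairpin and 47.60 and 53.11 with the TBX3 hairpin, the most abundant of the family in all 4 libraries. Its means were 60.6 ± 5.73 and 50.4 ± 3.90 (SD, n = 2 each; log2 fold change −0.26 ± 0.14, limma adjusted p = 0.839). NFKBIZ encodes IκBζ, a nuclear co-regulator of a secondary set of target genes. Its values of 25.50 and 28.33 with the control hairpin and 18.58 and 22.90 with the TBX3 hairpin did not overlap (log2 fold change −0.37 ± 0.15, limma adjusted p = 0.759). The log2 fold change of NFKBIA was −0.17 without shCtrl replicate 2, and that of NFKBIZ was −0.22 without shTBX3 replicate 1.

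NFKBIB, which encodes the IκBβ inhibitor, stood at 25.12 and 18.50 FPKM with the control hairpin and 24.92 and 19.26 with the TBX3 hairpin. NFKBIE, which encodes IκBε, was close to it at 25.81 and 20.11 against 24.55 and 21.30. In both of these genes replicate 1 was the higher library in each group, and the replicates were further apart than the group means. BCL3, a nuclear IκB protein that works with p50 and p52 dimers, stood at 21.84 and 26.17 with the control hairpin and 16.48 and 26.73 with the TBX3 hairpin. The shTBX3 values of BCL3 enclosed both shCtrl values. The 4 family members below NFKBIA had overall means between 22.0 and 23.8 FPKM and could not be ordered beyond their spread.

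Of the kinases, the IκB kinase catalytic subunits did not separate by group, and the other pair did. CHUK, which encodes IKKα, stood at 8.70 and 8.34 FPKM with the control hairpin and 8.70 and 8.25 with the TBX3 hairpin. IKBKB, which encodes IKKβ, stood at 7.48 and 9.44 against 7.85 and 8.36. Values of the groups overlapped for both kinases, and the 95% intervals of their differences were −0.33 to 0.32 for CHUK and −0.44 to 0.34 for IKBKB (log2).

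IKBKE encodes IKKε, an inducible relative that also acts in the interferon pathway. It stood at 10.12 and 11.11 FPKM with the control hairpin and 8.21 and 8.87 with the TBX3 hairpin, with means of 10.6 ± 0.700 and 8.54 ± 0.467 (SD, n = 2 each; log2 fold change −0.28 ± 0.14, limma adjusted p = 0.816). MAP3K8, the TPL2 kinase that links the p105 precursor to ERK signalling, was the lowest of the 4 at 4.48 and 6.15 against 3.16 and 4.09. Its shTBX3 values were the 2 lowest (log2 fold change −0.44 ± 0.20, limma adjusted p = 0.792), and the MAP3K8 difference was −0.25 without shCtrl replicate 2.

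The feedback regulators and TNF-induced genes had separate groups in 3 of 4 members, all 3 lower in shTBX3, against 19.7% of all genes tested. TNFAIP3 encodes A20, an enzyme that edits ubiquitin chains and shuts off signalling to the IκB kinases. Its level was 10.99 and 12.55 FPKM with the control hairpin and 9.46 and 9.84 with the TBX3 hairpin (log2 fold change −0.26 ± 0.14, limma adjusted p = 0.850). TNIP1, which encodes the ubiquitin-binding partner of A20, was the most abundant of all 38 genes in each library, at 97.31 and 114.19 with the control hairpin and 76.92 and 91.62 with the TBX3 hairpin. The TNIP1 means were 106 ± 11.9 and 84.3 ± 10.4 (SD, n = 2 each; log2 fold change −0.32 ± 0.15, limma adjusted p = 0.804). Without shCtrl replicate 2 the differences were −0.17 for TNFAIP3 and −0.21 for TNIP1, and without shTBX3 replicate 1 TNIP1 was at −0.20.

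TNFAIP2, a TNF-induced protein known for its part in membrane protrusions, stood at 2.82 and 2.42 FPKM with the control hairpin and 1.57 and 1.53 with the TBX3 hairpin. It had the largest difference of the 33 genes on the log2 scale, 1.69-fold in mean FPKM (log2 fold change −0.50 ± 0.18, limma adjusted p = 0.650). The 2 shTBX3 values were nearly equal and well apart from the shCtrl pair, at a level where the pseudocount of 1 shrinks the fitted value. TNFAIP8, which regulates cell survival, overlapped at 6.20 and 6.58 against 5.64 and 6.95.

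Adaptors and the cellular inhibitors of apoptosis were divided. IRAK2, a kinase-like adaptor that sustains interleukin-1 and Toll-like receptor signalling, stood at 11.94 and 13.14 FPKM with the control hairpin and 9.65 and 9.14 with the TBX3 hairpin. Its means of 12.5 ± 0.849 and 9.39 ± 0.361 (SD, n = 2 each) were further apart than the replicates of either group (log2 fold change −0.38 ± 0.13, limma adjusted p = 0.658). IRAK2 spans 10206603 to 10285429 on chromosome 3 (GRCh37).

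BIRC2 and BIRC3 are neighbouring genes on chromosome 11 (102217942 to 102249401 and 102188215 to 102210134, GRCh37) that encode cIAP1 and cIAP2, ubiquitin ligases that act with TRAF2. BIRC2 stood at 8.39 and 8.62 FPKM in shCtrl and at 9.78 in both shTBX3 libraries, the only member of the 33 whose shTBX3 pair lay above the shCtrl pair (log2 fold change 0.18 ± 0.13, limma adjusted p = 0.914). BIRC3, the NF-kB-inducible member of the pair, stood at 2.81 and 2.20 with the control hairpin and 2.18 and 1.58 with the TBX3 hairpin (log2 fold change −0.29 ± 0.20, limma adjusted p = 0.912). Leaving out shCtrl replicate 1 gave −0.16 for BIRC3, leaving out shTBX3 replicate 1 gave −0.44, and leaving out shTBX3 replicate 2 gave −0.13. The closest BIRC3 values of the groups, 2.20 and 2.18, are nearly equal, and whether the 2 genes differ in their response was not tested.

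TRAF2, the adaptor recruited to TNF receptor 1, was at 18.07 and 14.59 FPKM with the control hairpin and 18.26 and 16.06 with the TBX3 hairpin. TRAF3, which restrains the non-canonical kinase NIK, was at 14.49 and 12.66 against 13.22 and 11.21. TRAF1, an inducible family member, was at 2.73 and 4.00 against 3.45 and 4.08. In these 3 genes the groups overlapped.

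The ligands and cytokines were either close to 0 or overlapped between groups, with LTB as the exception. TNF was listed at 0 in 3 libraries and at 0.07 FPKM in shTBX3 replicate 2, where the value corresponds to an estimated 0.98 fragments. IL1A lay between 0.08 and 0.20 and IL1B between 0.08 and 0.24, with at most an estimated 3.02 fragments of IL1B in a library. CSF2, which encodes GM-CSF, lay between 0.46 and 0.77. At this depth no difference between groups was detectable in these 4 genes.

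LTB, which encodes lymphotoxin β, a ligand of the non-canonical branch, was below the level required for testing but had separate groups. It stood at 0.87 and 0.99 FPKM with the control hairpin and 0.14 and 0.29 with the TBX3 hairpin. These correspond to roughly 6.37, 7.26, 1.02 and 2.12 fragments, estimated with an uncertain transcript length and up to 0.37 from whole numbers, so no ratio of means is given. When genes of any level were tested, the log2 fold change of LTB was −0.67 ± 0.11 (SE) and the limma adjusted p was 0.516. At this level the pseudocount of 1 strongly shrinks the fitted value, so it does not measure the size of the difference. In that fit 0 of 20510 genes passed by limma, with 1249 at an unadjusted p under 0.05.

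TNFRSF1A, which encodes TNF receptor 1, stood at 34.08 and 38.04 FPKM with the control hairpin and 25.69 and 39.65 with the TBX3 hairpin. The shTBX3 libraries lay on either side of the shCtrl pair, so the difference in means of 36.1 ± 2.80 and 32.7 ± 9.87 rested on shTBX3 replicate 1. Of the cytokines, IL18, which epithelial cells make constitutively, was the most abundant at 25.56 and 30.01 against 26.68 and 23.82. IL32, a cytokine of epithelial and lymphoid cells, was at 16.42 and 17.24 against 14.94 and 18.94. CSF1, the macrophage growth factor M-CSF, was at 12.49 and 10.60 against 11.27 and 11.34.

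IL1RN, the secreted antagonist of the interleukin-1 receptor, was at 2.01 and 2.16 FPKM with the control hairpin and 3.0 and 1.91 with the TBX3 hairpin. IL23A, the p19 subunit of interleukin-23, was at 1.52 and 2.73 against 1.28 and 2.41. All 5 cytokines tested had overlapping groups, and the median of their log2 fold changes was −0.02. IL23A differed more between replicates than between groups, being higher in replicate 2 of both.

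SOD2, the manganese superoxide dismutase of mitochondria and a classical NF-kB target, had the smallest p of the 33 genes. It stood at 84.14 and 77.43 FPKM with the control hairpin and 61.19 and 54.43 with the TBX3 hairpin. Both shTBX3 libraries lay well below both shCtrl libraries, with means of 80.8 ± 4.74 and 57.8 ± 4.78 (SD, n = 2 each), 1.40-fold lower. The log2 fold change was −0.48 ± 0.13 (SE; 95% interval −0.79 to −0.16), the unadjusted p 0.00972 and the limma adjusted p 0.470. The log2 fold change ran from −0.56 to −0.39 when libraries were left out in turn, and the adjusted p over all settings from 0.106 to 0.791. In GRCh37 SOD2 lies on chromosome 6 between 160090101 and 160183561.

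The other effectors, ICAM1 and PTGS2, overlapped between groups. ICAM1, an adhesion molecule for leukocytes and a classical NF-kB target, was at 18.85 and 17.01 FPKM with the control hairpin and 18.30 and 17.76 with the TBX3 hairpin. Both shTBX3 values of ICAM1 lay inside the shCtrl range, and the 95% interval of its difference was −0.31 to 0.33. PTGS2, the inducible cyclooxygenase COX-2, was at 2.06 and 1.16 in shCtrl and at 1.92 in both shTBX3 libraries, again within the shCtrl range.

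**Figure D2:**
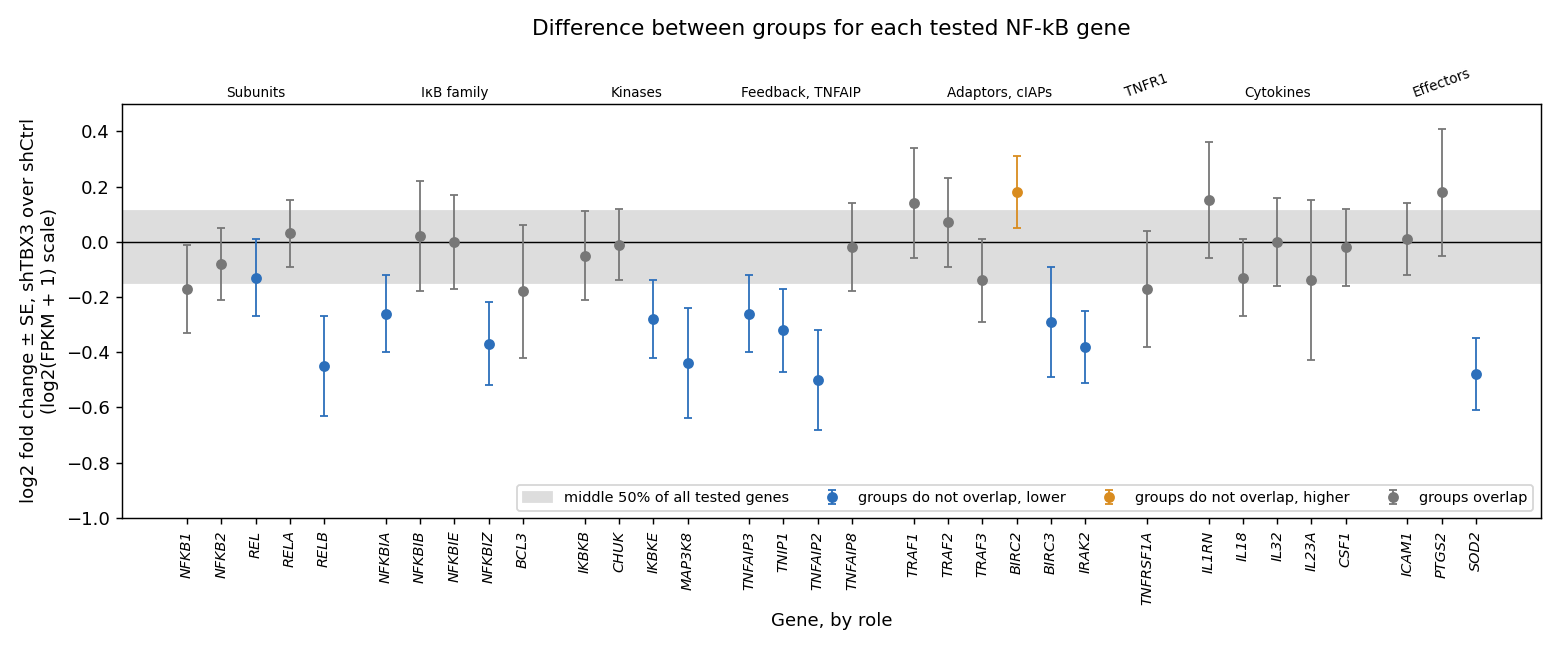
Log2 fold change (shTBX3 over shCtrl, log2(FPKM + 1) scale) of the 33 tested NF-kB genes by role. Points are limma estimates from 2 against 2 libraries, bars are SE, and the grey band holds the middle 50% of all 13924 genes tested (−0.15 to 0.11). Blue marks the 12 genes with separate and lower shTBX3 values and orange BIRC2, while SOD2, TNFAIP2, RELB and MAP3K8 lie lowest.

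The 33 genes also varied between libraries of the same group. In 11 of 33 genes (33.3%) the group difference on the log2 scale exceeded the difference between replicates in both groups, against 23.6% of all genes tested. These were RELB, NFKBIA, NFKBIZ, IKBKE, MAP3K8, TNFAIP3, TNIP1, TNFAIP2, IRAK2 and SOD2, all lower in shTBX3, and BIRC2. Replicate 2 departed from replicate 1 in the same direction in both groups for 27 of the 33 genes, against 65.5% of all genes, with 14 higher and 13 lower in replicate 2. NFKBIA, NFKBIZ, TNFAIP3, TNIP1, IKBKE and MAP3K8 were among those higher in replicate 2 of both groups, and NFKB1, RELB, NFKBIB, NFKBIE, TRAF2, BIRC3 and SOD2 among those lower.

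Taken within each replicate number, 16 of the 33 genes were lower in shTBX3 at both numbers and 4 were higher at both. Over all genes tested the shares were 33.2% and 26.8%. SOD2 differed by −0.453 at replicate 1 and −0.501 at replicate 2, MAP3K8 by −0.398 and −0.490, RELB by −0.513 and −0.389, and TNIP1 by −0.335 and −0.315 (log2(FPKM + 1)). By contrast BCL3 differed by −0.386 and 0.029, TNFRSF1A by −0.394 and 0.058, and PTGS2 by −0.068 and 0.435. The labels give no sign that a number marks a shared culture, day or batch.

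**Figure D3:**
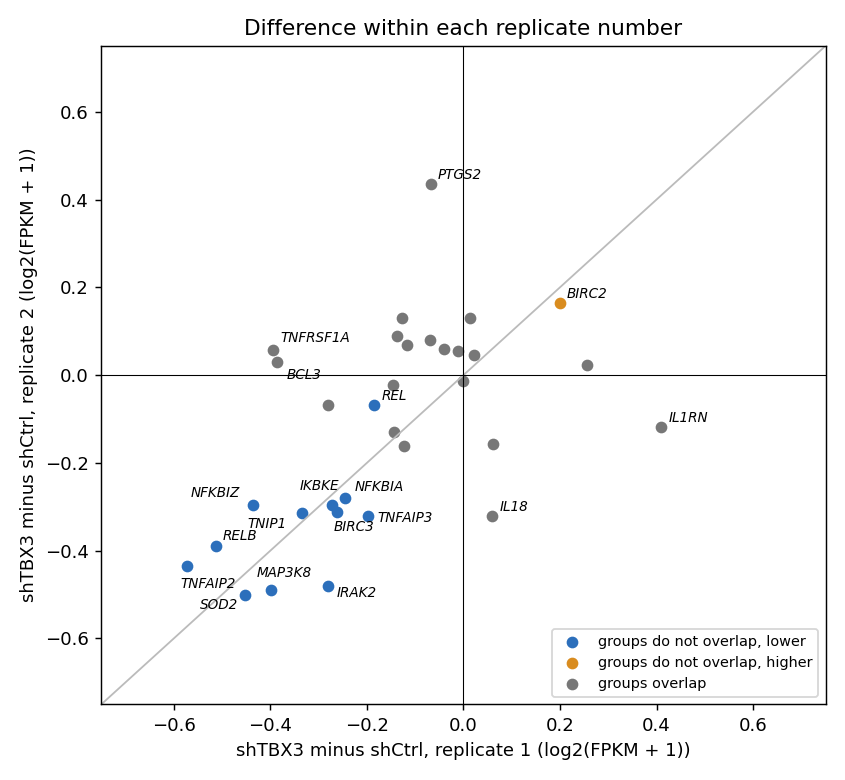
Difference between shTBX3 and shCtrl in log2(FPKM + 1) among libraries numbered 1 (horizontal axis) and libraries numbered 2 (vertical axis) for the 33 tested NF-kB genes. Each point is a gene, the diagonal marks equal differences, and the 12 blue genes lie below 0 on both axes, as lower separate groups must. PTGS2, IL1RN, IL18, BCL3 and TNFRSF1A differ in direction between the numbers.

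Further genes of the pathway were taken from lists written by function. Of 41 other receptors and signalling components, 36 were tested and 0 reached a limma adjusted p under 0.05, with 1 at an unadjusted p under 0.05, against 6.67% of all genes tested. Of the 36, 22 were lower and 14 higher in shTBX3 (median log2 fold change −0.07). TAB2, which tethers the kinase TAK1 to ubiquitin chains, stood at 10.94 and 11.16 FPKM with the control hairpin and 13.55 and 15.24 with the TBX3 hairpin (limma adjusted p = 0.702). Its shTBX3 values were both the higher. TLR3, the receptor for double-stranded RNA, was at 5.32 and 6.43 against 4.64 and 4.03, and MAP3K7, which encodes TAK1, was at 8.27 and 7.41 against 10.34 and 9.23 (limma adjusted p = 0.792 and 0.830).

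Of 18 other negative regulators, 17 were tested and 0 passed limma's threshold. At an unadjusted p under 0.05 there were 2, both lower, against 6.67% of all genes tested in either direction and 4.65% lower. TAX1BP1, an autophagy receptor that assists A20, stood at 44.46 and 49.74 FPKM with the control hairpin and 36.84 and 33.15 with the TBX3 hairpin (log2 fold change −0.42 ± 0.13, limma adjusted p = 0.581). ZC3H12A, the RNase Regnase-1 that degrades cytokine mRNA, was at 39.23 and 46.96 against 28.67 and 35.54 (log2 fold change −0.42 ± 0.16, limma adjusted p = 0.721). TOLLIP, an adaptor that dampens interleukin-1 signalling, was at 22.00 and 22.26 against 17.34 and 18.36 (limma adjusted p = 0.761). In these 3 genes both shTBX3 values were the lower, yet over the list 8 were lower and 9 higher, with a median of 0.00.

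Other target genes, 40 listed and 30 tested, were split most widely. Again 0 passed limma's threshold, with 8 at an unadjusted p under 0.05, 6 lower and 2 higher (against 4.65% and 2.03% of all genes tested), and the directions over the list were 14 lower and 16 higher (median 0.02). SAA1, an acute-phase protein, had the smallest p in the list (limma adjusted p = 0.116), at 239.12 and 233.22 FPKM with the control hairpin and 124.31 and 139.32 with the TBX3 hairpin. PIGR, the receptor that carries immunoglobulin A across epithelium, was at 4.78 and 8.13 against 1.52 and 2.21 (log2 fold change −1.35 ± 0.26, limma adjusted p = 0.223). SAA2 was at 39.90 and 51.10 against 18.79 and 29.83 (limma adjusted p = 0.458), and it shares much of its sequence with SAA1, so the division of fragments between them is uncertain. KLF6 and CD83, the 2 higher genes at that unadjusted limit, stood at 13.84 and 15.80 against 19.64 and 21.60 and at 6.87 and 5.01 against 10.26 and 8.38 (limma adjusted p = 0.564 and 0.600). Also lower at that limit were LCN2, C3 and CD44, with log2 fold changes of −1.01, −1.05 and −0.94 (limma adjusted p = 0.542, 0.555 and 0.703).

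**Figure D4:**
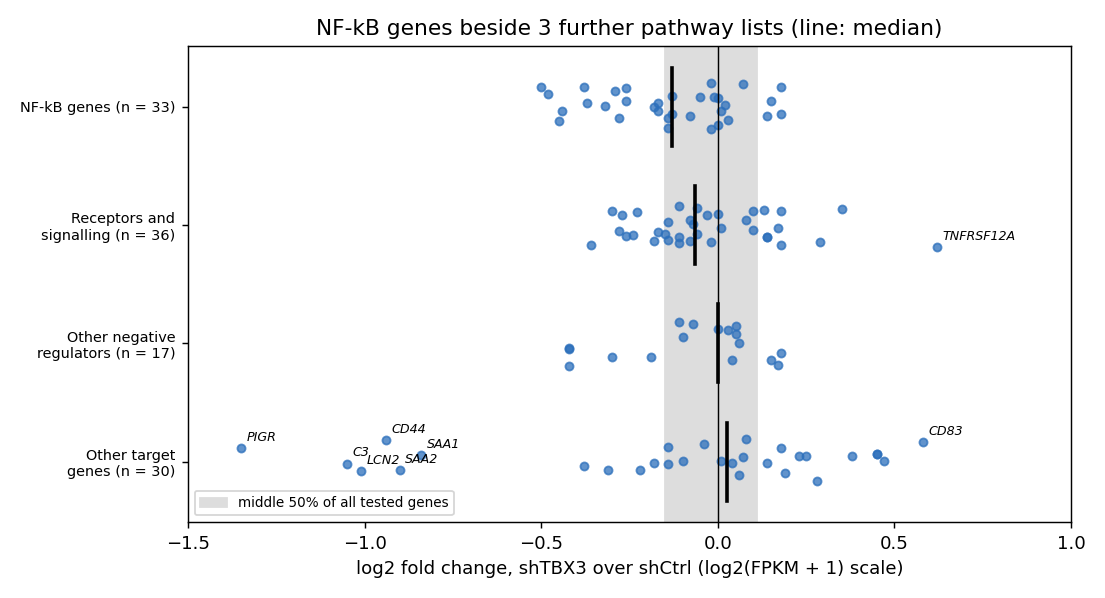
Log2 fold change (shTBX3 over shCtrl, log2(FPKM + 1) scale) of the 33 tested NF-kB genes and of 36 receptor and signalling, 17 other inhibitory and 30 other target genes. Points are genes, black lines medians (−0.13, −0.07, 0.00 and 0.02) and the grey band the middle 50% of all genes tested. The target genes spread from −1.35 for PIGR to 0.58 for CD83.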

How the data were processed

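RNA-seq of 4 libraries, 2 per group, was deposited as a table of FPKM. HISAT, Bowtie2, RSEM and the hg19 build are listed, with neither version nor role, per the submitters' processing notes. The sources used here give neither strandedness nor annotation release. FPKM as the authors deposited them were transformed to log2(FPKM + 1) and tested over 13924 genes with limma 3.58.1 in R 4.3.3 (intensity trend, two-sided, Benjamini-Hochberg, threshold 0.05), with 2 residual and 4.11 prior degrees of freedom. The fit was tested on simulated data. An exact permutation test of 2 against 2 libraries cannot go below 0.333. Values of any 2 libraries were identical in at most 0.56% of genes. The log2 scale understates changes of low genes, while ratios use mean FPKM.

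Members and lists were chosen with earlier results of these data known. Values in each library are given for every tested member, and test statistics for those with separate groups or an unadjusted p under 0.05. Of the further lists, the 3 genes with the smallest p are named, and KLF6, CD83, single immune, fibroblast and thyroid markers and the other genes labelled in the plot of lists were added after their values were seen. Depth was fitted from microRNA lengths in GENCODE release 44 on GRCh37, where at least 85.2% of values at up to 6 fragments lay within 0.05 of a whole number, and fragments of low genes were estimated from the canonical transcript. Promoters are RefSeq's (GRCh38.p14), printed with the GRCh37 position of the same sequence. Alternatives were other pseudocounts, filters, scalings and variance models, a replicate block and leaving out each library. Python 3.11.15, pandas 2.3.3 and matplotlib 3.10.9 were used. 1 thyroid marker is not reported here.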

Additional observations from a re-analysis of the deposited data

How the results depend on the processing

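In each alternative with all 4 libraries 0 of the NF-kB genes passed limma's threshold, with 3 to 9 at an unadjusted p under 0.05. The 3 (9.09%) came with quantile normalization, median centring and no intensity trend, where 6.55%, 6.46% and 6.81% of all genes reached that limit. As single libraries were left out, the share of NF-kB genes at that limit did not always exceed the share of all genes. The 9 (27.3%) came with the replicate block, where 14.3% of all genes reached that limit. The count of genes passing over the whole table was less steady: 25 as reported, 7 with a pseudocount of 0.1, 0 with no filter on low values (1249 at an unadjusted p under 0.05 in limma), 12 with at least 1 FPKM in all 4 libraries, 3 at an adjusted p of 0.01 and 12 (without shTBX3 replicate 1) to 55 (without shCtrl replicate 1) as single libraries were left out. The median log2 fold change of the NF-kB genes (−0.131) was −0.146 with a pseudocount of 0.1, −0.0947 with quantile normalization, −0.0828 with median centring, −0.150 with scaling to coding genes and −0.165 to −0.0726 as single libraries were left out. The count of NF-kB genes with separate groups was 13 as reported (39.4%, all genes 34.6%). It lay between 20 and 25 as single libraries were left out, since 1 value against 2 overlaps less often. In the fits, that single library is assumed to vary like the other group. The share was 66.7% without shCtrl replicate 1 (all genes 71.5%) and 60.6% without shTBX3 replicate 2 (all genes 69.7%). It was 72.7% without shCtrl replicate 2 (all genes 65.6%) and 75.8% without shTBX3 replicate 1 (all genes 61.6%). The cause of the other shifts was not tested.

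With the replicate block 132 genes passed over the whole table and 0 of the 33 NF-kB genes. The numbers do not pair the libraries by the labels. Deviations of same-numbered libraries correlated at 0.26 across 13924 genes, a hint from the data only.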
